A study of Homo sapiens with 4 samples.

Results

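The nuclear genes of respiratory complexes I, III and IV were examined in OVCAR5 cells carrying a hairpin against FOXK2 or a control hairpin. Members were chosen by gene symbol, with earlier results of these data known. They were the numbered NDUFA, NDUFB, NDUFC, NDUFS and NDUFV subunits and NDUFAF assembly factors of complex I, the UQCR genes of complex III and the lettered COX4 to COX8 subunits of complex IV, and NDUFA4, NDUFA4L2 and 11 pseudogenes were left out. This gave 67 of the 56655 genes counted: 36 complex I subunits, 8 complex I assembly factors, 9 complex III genes and 14 complex IV genes. Some subunits have symbols of another form, such as NDUFAB1, COX4I1 and CYC1, and were read separately.

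OVCAR5 is a human ovarian cancer cell line, here labelled high grade serous and derived from ascites. Cells carried either a nontargeting control hairpin (shCtrl, 2 libraries) or a hairpin against FOXK2, a forkhead transcription factor (shFOXK2, 2 libraries). Both groups were stable lentiviral lines under puromycin selection, so hairpin integration and selection were shared by the controls. Poly(A) RNA was sequenced, and the question was how these transcripts differed between shFOXK2 and shCtrl.

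Complex I passes electrons from NADH to ubiquinone, complex III passes them on to cytochrome c, and complex IV hands them to oxygen. Each complex pumps or releases protons across the inner mitochondrial membrane, and ATP synthase uses that gradient. The complexes are built from subunits of both genomes: mitochondrial DNA encodes the hydrophobic catalytic core, and nuclear genes encode the remaining subunits and the assembly factors, which hold intermediates together and are absent from the finished enzyme.

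Libraries held 14284005 to 21950873 counts, so that 3 counts corresponded to 0.134 to 0.211 in CPM, a count scaled to a common library total. Of the epithelial markers, KRT8, KRT18, KRT19 and EPCAM were at 80.3 CPM or more in each library, and CDH1 was far lower. Of 4 ovarian or Müllerian markers, PAX8 was counted 351 and 335 times in shCtrl against 156 and 162 times in shFOXK2, MUC16 397 and 145 against 0 and 8 times, and WT1 and ESR1 were at 3 counts or fewer. The epithelial marker CDH1, an adhesion gene, was counted 459 and 260 times in shCtrl against 13 and 24 times in shFOXK2 (log2 fold change −4.02). Leukocyte markers were at 3 counts or fewer, and of 4 fibroblast markers only COL1A1 exceeded 5 (215 to 324). Of the endothelial genes, PECAM1 was counted 154 and 90 times in shCtrl against 9 and 29 times in shFOXK2, and VWF was at 7 counts or fewer. Of 4 gastrointestinal genes, CDX2 was counted 230 and 214 against 126 and 125 times and LGALS4 3 and 1 against 15 and 16 times. CDH17 and VIL1 were at 17 counts or fewer. The part of these shifts in the respiratory genes was not tested. FOXK2 itself stood at 80.5 and 93.4 CPM in shCtrl and 76.4 and 59.6 CPM in shFOXK2. The groups did not overlap, yet the change of −0.36 on the log2 scale (SE 0.25) missed the threshold (adjusted p = 0.257). It ran from −0.571 to −0.219 when 1 library was left out, and was −0.06 and −0.03 with the offsets for GC and adenine content described further on. Lower FOXK2 mRNA in shFOXK2 was therefore not established by these counts. By qRT-PCR and Western blot, the paper reported lower FOXK2 mRNA and protein in OVCAR5 cells carrying FOXK2 hairpins.

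Most respiratory genes did not pass the test, and those that did were 4 complex I assembly factors, 7 complex I subunits, and 1 subunit each of complexes III and IV. Of the 67 members, 62 passed the filter on low counts. Of these, 10 rose and 3 fell in shFOXK2 at an adjusted p under 0.05 in edgeR's quasi-likelihood test (Benjamini-Hochberg over 16417 genes). These 13 were 21.0% of the members tested, whereas 48.4% of all tested genes were called, 25.7% higher and 22.7% lower. The median log2 fold change was 0.14 in the members and 0.04 in all tested genes, and the highest member value was 1.82. In 32 of the 62 members the libraries of one group lay wholly above those of the other, against 75.4% of all tested genes. The median SE was 0.26 in the members and 0.31 in all tested genes, which were not matched for level. Of the 49 members not called, 38 differed by less than 0.5 on the log2 scale. Why a smaller share of members was called was not tested.

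**Figure D1:**
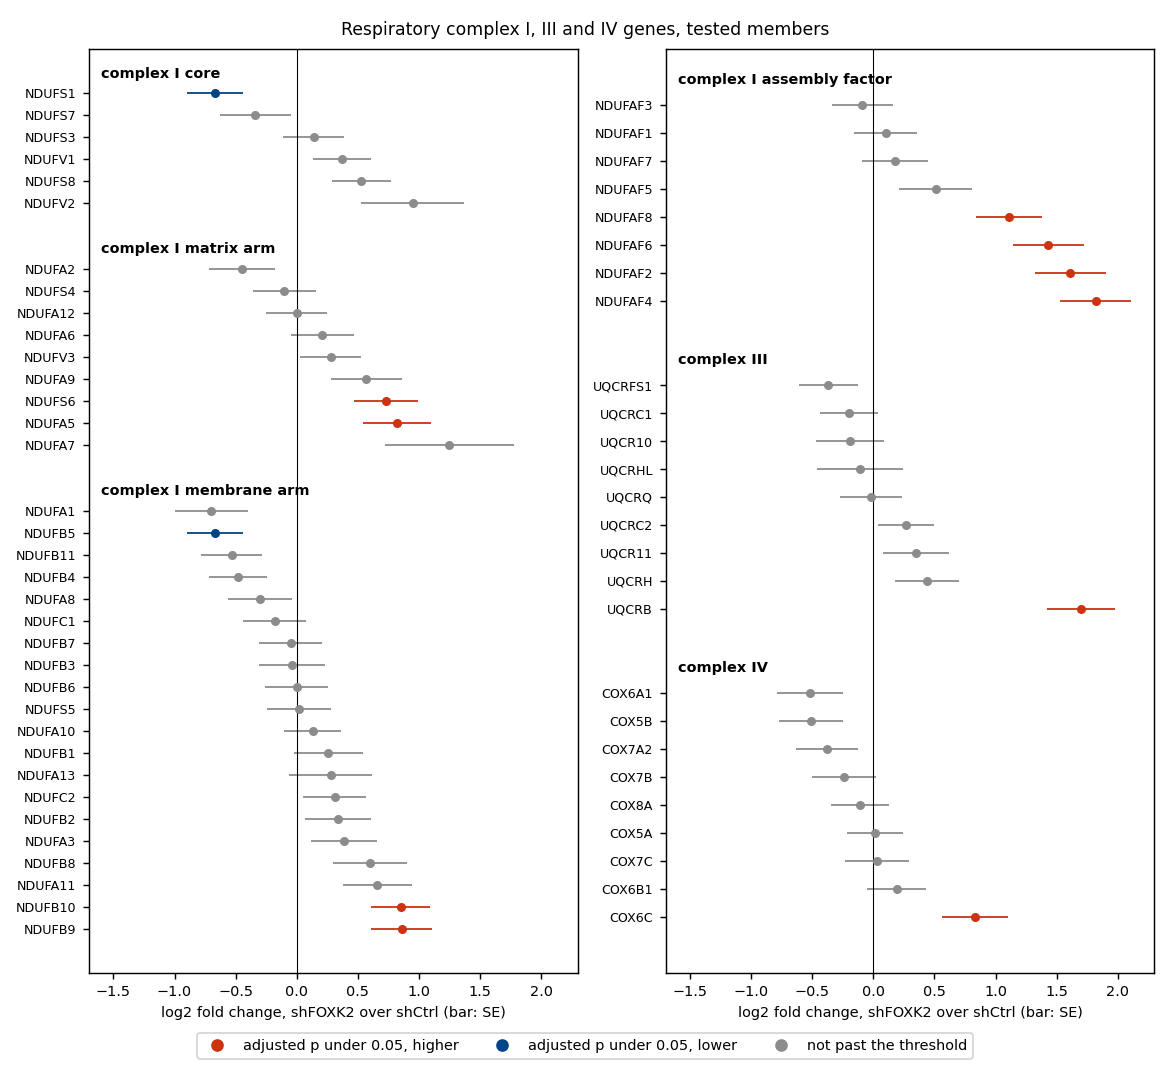
Log2 fold change of shFOXK2 over shCtrl for 61 members that passed the filter, by role; points are fitted values and bars are 1 SE (2 libraries per group). Red points (10) rose and blue points (2) fell at an adjusted p under 0.05; 4 of the 8 assembly factors lie at 1.11 or above.

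Summed over each complex, the groups lay close together except for the assembly factors. The 36 complex I subunits summed to 2330 and 2913 CPM in shCtrl and 2639 and 3115 CPM in shFOXK2, and these ranges overlapped. The 14 complex IV genes summed to 1050 and 1368 CPM against 1032 and 1293 CPM, also overlapping. For the 9 complex III genes the sums were 836 and 996 CPM against 991 and 1184 CPM, and these ranges overlapped too. Here the shFOXK2 mean was 118.8% of the shCtrl mean, and 102.6% with UQCRB left out. The 8 assembly factors summed to 145 and 162 CPM in shCtrl and 230 and 242 CPM in shFOXK2, 153.7% of the shCtrl mean, with both shFOXK2 libraries above both controls. With 2 libraries against 2, an exact two-sided permutation test cannot give a p under 0.33, so no test was made on these sums.

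**Figure D2:**
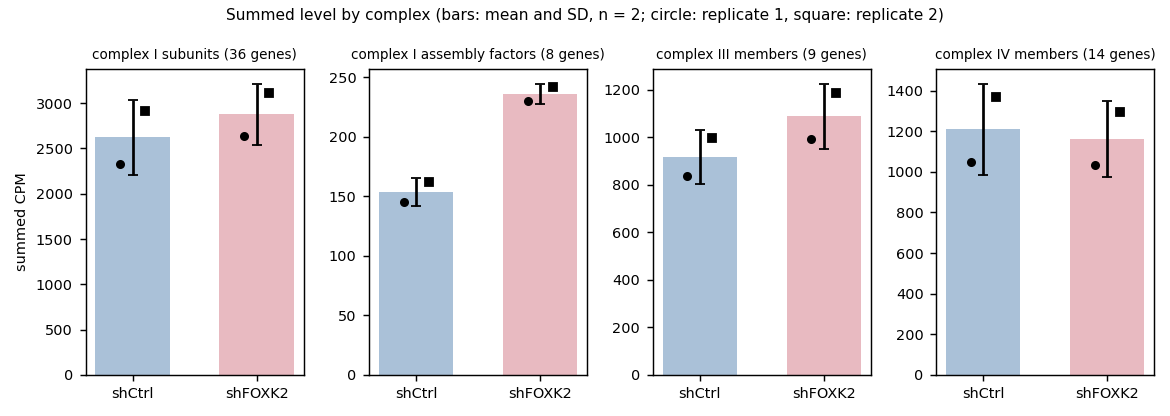
Summed CPM of the members of each complex; bars are the mean and error bars the SD of 2 libraries, and symbols are single libraries. The 2 groups separate for the assembly factors (145 and 162 CPM against 230 and 242 CPM) and overlap for complex I subunits, complex III and complex IV.

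Among the complex I assembly factors, 4 of the 8 members rose, none fell and 4 did not pass the test. That share is near the 48.4% called over all tested genes (25.7% higher), and the median log2 fold change was 0.81. The largest rise of all members was in this group. NDUFAF4 (chromosome 6, 96889315 to 96897891, minus strand), which works with NDUFAF3 in building the quinone-binding module, was counted 179 and 117 times in shCtrl against 429 and 438 times in shFOXK2. Its CPM values were 8.02 and 7.29 against 30.2 and 24.1, with means of 7.66 ± 0.520 and 27.1 ± 4.31 (SD of 2 libraries). On the log2 scale the change was 1.82 (SE 0.29, adjusted p = 0.000247). NDUFAF2 (chromosome 5, 60945177 to 61154531, plus strand), a late-acting chaperone and paralog of the subunit NDUFA12, went from 10.0 and 11.8 CPM to 28.3 and 38.2 CPM (log2 fold change 1.61, SE 0.29, adjusted p = 0.000544). The paralog NDUFA12 stood at 51.6 ± 1.41 and 51.7 ± 9.66 CPM (log2 fold change 0.00, SE 0.25). With the adenine offset described further on, NDUFA12 was called lower (−0.97, adjusted p = 0.00663).

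Both shFOXK2 libraries exceeded both controls for these genes. NDUFAF6 (chromosome 8, 94895533 to 95116455, plus strand), an early assembly factor, and NDUFAF8 (chromosome 17, 81239305 to 81241310, plus strand), the partner of the NDUFS7-modifying enzyme NDUFAF5, lay outside the rule for named genes and were added after their values were seen. NDUFAF6 went from 7.89 and 7.79 CPM to 20.04 and 22.2 CPM (log2 fold change 1.43, SE 0.29, adjusted p = 0.00118). NDUFAF8 went from 17.1 and 22.4 CPM to 39.1 and 45.8 CPM (log2 fold change 1.11, SE 0.27, adjusted p = 0.00431). All 4 calls held in each fit that left out 1 library. The remaining assembly factors had log2 fold changes of 0.51 (NDUFAF5), 0.18 (NDUFAF7), 0.10 (NDUFAF1) and −0.09 (NDUFAF3), the last being the partner of NDUFAF4 and standing at 55.8 ± 10.2 CPM in shCtrl and 52.6 ± 1.28 CPM in shFOXK2. The NDUFAF2 transcript is 36.1% adenine, and with an offset for adenine content its value turned to −0.56 (adjusted p = 0.103), while NDUFAF4 was still called at 0.75 (adjusted p = 0.0354), and at 0.92 (adjusted p = 0.0185) with the GC offset.

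Further complex I assembly factors outside the symbol rule gave 2 higher and 0 lower calls among 8 genes. FOXRED1, an oxidoreductase needed for complex I assembly, went from 28.8 and 36.4 CPM to 67.1 and 63.9 CPM (log2 fold change 1.01, SE 0.25, adjusted p = 0.00544). TMEM126B, a member of the intermediate assembly complex with NDUFAF1, also rose (log2 fold change 0.68, SE 0.25, adjusted p = 0.0421). Its call was lost without shCtrl replicate 2 (0.50), without shFOXK2 replicate 1 (0.72, adjusted p = 0.0943) and without shFOXK2 replicate 2 (0.57, adjusted p = 0.224), and its sign turned with composition offsets (−0.21 for GC and −0.44 for adenine).

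Core subunits of the matrix arm carry flavin and iron-sulfur clusters. NDUFS1 (chromosome 2, 206114817 to 206159509, minus strand), the largest core subunit and a carrier of iron-sulfur clusters, went from 171 and 158 CPM to 99.97 and 107 CPM (log2 fold change −0.67, SE 0.23, adjusted p = 0.0271). Both shFOXK2 libraries lay below both controls. The call held only without shCtrl replicate 2, and in the other leave-one-out fits the adjusted p was 0.0606 to 0.111, with values of −0.64 when shCtrl replicate 1 was left out, −0.65 for shFOXK2 replicate 1 and −0.75 for shFOXK2 replicate 2.

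The core subunits NDUFV1, NDUFV2, NDUFS3, NDUFS7 and NDUFS8 did not pass the test. NDUFV1, which binds flavin and NADH, had 161 and 213 CPM in shCtrl and 237 and 245 CPM in shFOXK2 (log2 fold change 0.37, SE 0.24, adjusted p = 0.213). NDUFS8, an iron-sulfur subunit next to the membrane, had 153 and 211 CPM against 249 and 276 CPM (log2 fold change 0.53, SE 0.24, adjusted p = 0.0885), and was called without shCtrl replicate 2 (0.70, adjusted p = 0.0482). For both genes the shFOXK2 libraries lay above the controls. NDUFS3 and NDUFS7 overlapped between groups, with log2 fold changes of 0.14 and −0.34, and NDUFS3 turned to −0.08 without shCtrl replicate 1. With the GC and adenine offsets, 3 of these genes were called higher in both: NDUFV1 (0.72 and 0.76), NDUFS8 (0.76 and 0.92) and NDUFS3 (0.49 with each). NDUFV2 was called higher with the GC offset (1.05, adjusted p = 0.0477) but not with the adenine offset (0.59). NDUFV2 had 1.79 and 0.997 CPM against 3.09 and 2.42 CPM (log2 fold change 0.95, SE 0.42, adjusted p = 0.0749), and was called without shFOXK2 replicate 2 (1.08, adjusted p = 0.0348). The low level of NDUFV2 needs a note on counting, given further on.

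Of the 9 supernumerary subunits of the matrix arm, 2 rose and 7 did not pass the test. NDUFS6 (chromosome 5, 1801407 to 1816048, plus strand), a zinc-binding subunit, went from 93.7 and 118 CPM to 143 and 208 CPM (log2 fold change 0.73, SE 0.26, adjusted p = 0.0313). NDUFA5 (chromosome 7, 123536997 to 123557904, minus strand), a subunit of the quinone-binding module, went from 21.7 and 17.7 CPM to 29.5 and 40.0 CPM (log2 fold change 0.82, SE 0.28, adjusted p = 0.0260). The groups did not overlap for either gene, but neither call was firm. NDUFS6 was lost without shCtrl replicate 1 (0.54, adjusted p = 0.144) and without shFOXK2 replicate 2 (0.40, adjusted p = 0.349). NDUFA5 was lost without shCtrl replicate 2 (0.61, adjusted p = 0.129) and without shFOXK2 replicate 2 (0.55, adjusted p = 0.241). With an offset for GC content NDUFA5 turned to −0.29 (adjusted p = 0.291), and with one for length NDUFS6 was at 0.29 (adjusted p = 0.312).

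Among the 20 supernumerary subunits of the membrane arm, 2 rose, 1 fell and 17 did not pass the test. NDUFB9 (chromosome 8, 124539101 to 124580648, plus strand), a subunit at the far end of the arm, went from 165 and 221 CPM to 313 and 388 CPM (log2 fold change 0.86, SE 0.25, adjusted p = 0.0105). NDUFB10 (chromosome 16, 1959538 to 1961975, plus strand), a disulfide-bonded subunit of the same region, went from 87.9 and 112 CPM to 162 and 198 CPM (log2 fold change 0.85, SE 0.24, adjusted p = 0.0109). NDUFB5 (chromosome 3, 179604690 to 179627647, plus strand), also of the distal arm, went the other way, from 139 and 153 CPM to 86.1 and 96.8 CPM (log2 fold change −0.67, SE 0.23, adjusted p = 0.0288). Called subunits of the membrane arm thus moved in opposite directions in the reported fit. NDUFB9 and NDUFB10 lost their calls without shCtrl replicate 1 (0.63 and 0.65, adjusted p = 0.0732 and 0.0707) and without shFOXK2 replicate 2 (0.67 and 0.66, adjusted p = 0.0880 and 0.0997). With the length offset NDUFB10 was at 0.52 (adjusted p = 0.0575) and NDUFB9 at 0.55 (adjusted p = 0.0446). Among the leave-one-out fits NDUFB5 was called only without shCtrl replicate 1, with adjusted p of 0.0513 without shCtrl replicate 2, 0.134 without shFOXK2 replicate 1 and 0.0596 without shFOXK2 replicate 2. NDUFB9 shares 23.9% of its exon sequence with the antisense gene TATDN1, and whether counting used strand was not stated. The remaining 17 ran from −0.70 (NDUFA1, 54.1 and 70.0 CPM against 27.4 and 49.1 CPM, adjusted p = 0.0712) to 0.66 (NDUFA11, adjusted p = 0.0641). NDUFA1 ran from −1.21 to −0.36 when 1 library was left out. With the length offset NDUFA1 was called lower (−1.22, adjusted p = 0.000563).

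In complex III, 1 of 9 members rose and 8 did not pass the test. UQCRB (chromosome 8, 96222947 to 96235546, minus strand), a small subunit next to the quinone-binding site, went from 69.3 and 63.3 CPM to 158 and 274 CPM. Its log2 fold change of 1.70 (SE 0.28, adjusted p = 0.000307) was the second largest of all members, and it was called in each leave-one-out fit, with values from 1.22 to 2.02. With the GC offset it was at 1.11 and still called (adjusted p = 0.00974). The shFOXK2 libraries lay far apart, and still both stood above the controls. UQCRFS1, the Rieske iron-sulfur subunit, had 72.1 and 86.3 CPM against 59.5 and 62.9 CPM (log2 fold change −0.37, SE 0.24, adjusted p = 0.224). The core proteins UQCRC1 and UQCRC2 had log2 fold changes of −0.20 (adjusted p = 0.523) and 0.27 (adjusted p = 0.352). UQCRH and its near-identical gene UQCRHL had log2 fold changes of 0.44 and −0.11, and reads that fit both cannot be assigned with certainty.

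In complex IV, 1 of the 9 members tested rose and 8 did not pass the test. COX6C (chromosome 8, 99873200 to 99893707, minus strand), a structural subunit with no known tissue isoform, went from 71.3 and 90.9 CPM to 110 and 177 CPM (log2 fold change 0.83, SE 0.27, adjusted p = 0.0232). The call was lost without shCtrl replicate 1 (0.63, adjusted p = 0.0919) and without shFOXK2 replicate 2 (0.41, adjusted p = 0.350), and also with the GC offset (0.37, adjusted p = 0.346) and the length offset (0.52, adjusted p = 0.0767). COX5A and COX7C had log2 fold changes of 0.01 and 0.03.

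Several complex IV subunits exist as a ubiquitous and a tissue-restricted isoform, and the cells used the ubiquitous form in both groups. COX6A1 had 33.4 and 44.4 CPM in shCtrl and 25.9 and 28.2 CPM in shFOXK2 (log2 fold change −0.52, SE 0.27, adjusted p = 0.120), while its heart and muscle form COX6A2 had 0 counts in each library. COX6A1 was called lower without shCtrl replicate 1 (−0.75, adjusted p = 0.0372) and with the length offset (−0.94, adjusted p = 0.00358). COX6B1 had a log2 fold change of 0.19, missing the threshold, and the testis form COX6B2 had 8, 8, 8 and 19 counts. COX6B1 turned to −0.07 without shCtrl replicate 1. With the GC and adenine offsets COX6B1 was called higher (0.55 and 0.54, adjusted p = 0.0318 and 0.0347). COX7A2 stood at −0.38 (adjusted p = 0.229), or at −0.86 with the length offset (adjusted p = 0.00353), and the muscle form COX7A1 had 5, 2, 4 and 12 counts. COX7B and COX8A stood at −0.24 and −0.11, while COX7B2 had 0 counts in each library and COX8C had 1 count in all. COX8A turned to 0.03 without shCtrl replicate 2, and was called lower with the length offset (−0.55, adjusted p = 0.0477). These 5 restricted forms are the members that did not pass the filter, so no isoform switch was detectable at this depth.

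**Figure D3:**
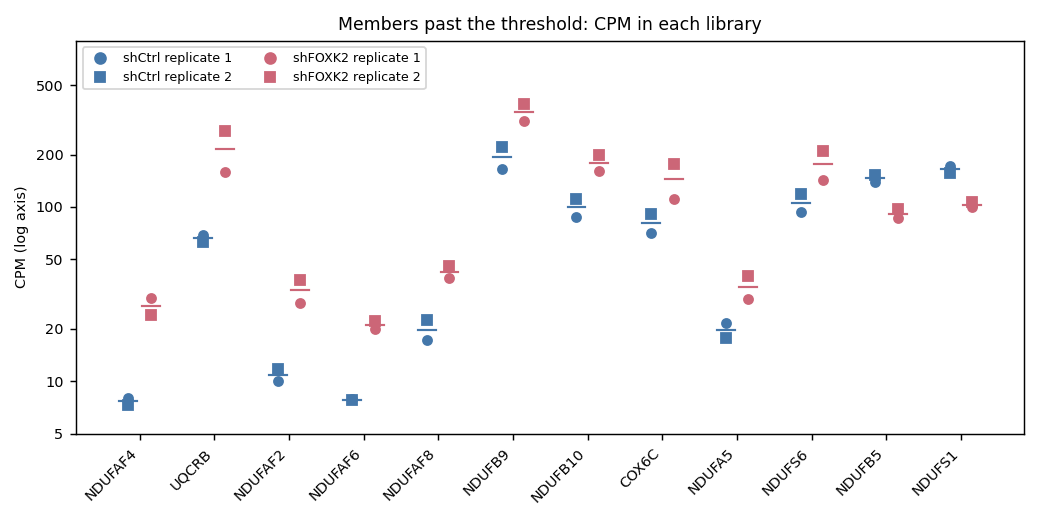
CPM (log axis) of 12 members past the threshold in each library, ordered by log2 fold change; circles are replicate 1, squares replicate 2 and lines the group means. For each gene both shFOXK2 libraries (red) lie on one side of both shCtrl libraries (blue), above for 10 genes and below for 2.

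Members on chromosome 8 were also read together, a grouping made after the values were seen. All 4 members on that chromosome rose (NDUFAF6, UQCRB, COX6C and NDUFB9), as did 39.5% of its 486 tested genes. The median log2 fold change of its other 482 tested genes was 0.46. Of 23 chromosomes with at least 100 tested genes, only chromosomes 8 and 13 had medians this high (0.48 and 0.51), and the others ran from −0.55 to 0.10. A further complex III gene on chromosome 8, CYC1 (cytochrome c1), had 346 and 491 CPM against 565 and 437 CPM and was not called (log2 fold change 0.26, adjusted p = 0.421). Off chromosome 8, 6 members rose and 3 fell among 58 tested. The part of chromosomal position in these differences was not tested.

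Promoter sequences from RefSeq (GRCh38.p14, 250 bases before to 50 after a gene start) matched 57 of the 67 members, in 70 windows. Short motifs of factors known for respiratory genes were searched on both strands, as a description. The NRF1 motif GCATGCGC lay in 14.3% of member windows, 4.43% of the windows of tested genes and 3.05% of all 35116 windows. The YY1 motif AAGATGGCG lay in 12.9%, 3.23% and 1.75%, and the ETS motif CCGGAAGT, read by GABPA, in 10.0%, 6.94% and 4.14%. The estrogen-related receptor motif TCAAGGTCA lay in no member window, against 0.184% and 0.353%. The forkhead core TGTTTAC was in 2.86% of member windows, both of them of NDUFAF8, against 2.62% and 3.42%. The overlapping letters of the NRF1 motif on both strands were counted as 1 window.

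The members with a match that passed the threshold in the reported fit are shown. NDUFS6, NDUFA5 and NDUFAF4 rose and hold the NRF1 motif, NDUFAF8 rose and holds the forkhead and YY1 motifs, and NDUFS1 fell and holds the ETS motif. Each line reads 5′ to 3′ on the strand of the gene (plus for NDUFS6 and NDUFAF8, minus for the others), with the match in capitals, in the orientation in which it occurs.
NDUFS6, chr5:1801336-1801393, 46 bases before the start: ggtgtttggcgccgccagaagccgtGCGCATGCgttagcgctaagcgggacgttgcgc
NDUFA5, chr7:123557944-123558001, 158 bases before the start: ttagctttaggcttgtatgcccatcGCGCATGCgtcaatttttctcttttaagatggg
NDUFAF4, chr6:96897867-96897894, match after the start: ctcacttgtGCGCATGCtccgggtgtcc
NDUFAF8, forkhead, chr17:81239127-81239183, 159 bases before the start: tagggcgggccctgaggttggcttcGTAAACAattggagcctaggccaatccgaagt
NDUFAF8, YY1, chr17:81239318-81239345, after the start: gacggacctAAGATGGCGgcctccaggg
NDUFS1, chr2:206159570-206159627, 158 bases before the start: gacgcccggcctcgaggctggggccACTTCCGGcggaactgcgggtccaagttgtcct

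Of the member genes with the NRF1 motif 3 of 10 were called, of those with the ETS motif 1 of 7, of those with the YY1 motif 1 of 8, and the 1 gene with the forkhead motif was called. Over all members tested 21.0% were called, and over all tested genes 48.4%, so these small counts set no motif apart.

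Counting and transcript structure touch several of these values. Most member transcripts are short: the median annotated length (GENCODE v44) was 751 bases, against 3152 for tested genes, and 38 of the 62 members were under 1000 bases, against 8.81% of tested genes. Across tested genes under 1000 bases the median was 0.33 on the log2 scale, with 32.8% called higher. With a smooth offset for transcript length, member calls became 7 higher and 12 lower, 10 of the lower ones not called otherwise, and the member median became −0.11 (52.2% of all genes called). With a GC offset they became 20 higher and 2 lower (52.8% called), and with an adenine offset 23 higher and 5 lower (51.1% called). Adding the replicate number as a block left 9 higher and 0 lower (44.3% called), with adjusted p of 0.0744 for NDUFS1, 0.0756 for NDUFB5 and 0.0544 for NDUFS6. With no filter on low counts the members gave 8 higher and 4 lower, and the median over all genes moved to 0.43.

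Of the 13 calls, 5 held in the same direction in all 11 alternative fits with the 4 libraries kept: NDUFAF4, NDUFAF6, NDUFAF8, NDUFB9 and UQCRB. In both groups the members also stood higher in replicate 2 than in replicate 1. This was so for 51 of 62 members in shCtrl (median log2 ratio 0.35) and 50 of 62 in shFOXK2 (0.28), against 52.4% and 50.5% of all tested genes. Its part in the calls was not tested.

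**Figure D4:**
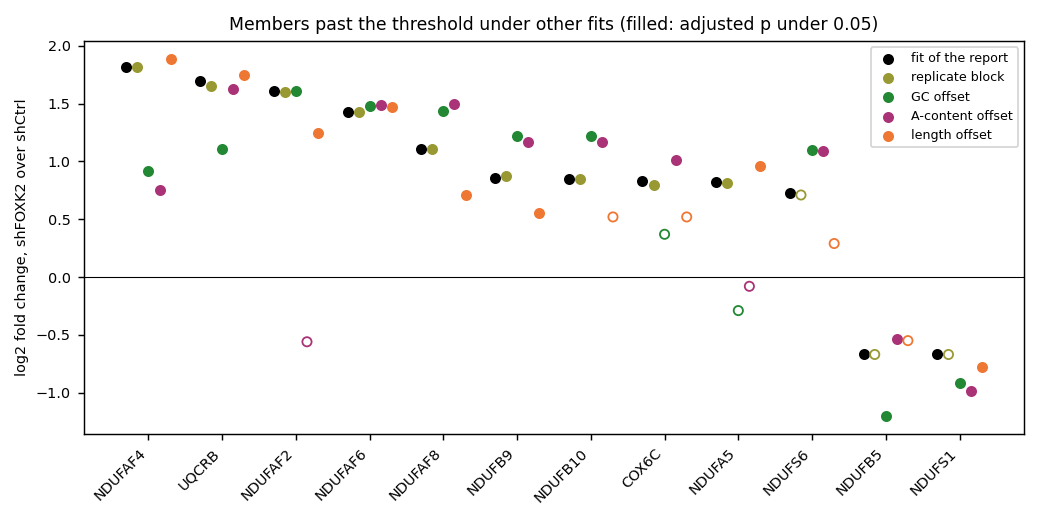
Log2 fold change of 12 called members in the reported fit (black) and with a replicate block or an offset for GC content, adenine content or transcript length; filled points have an adjusted p under 0.05. NDUFAF2 (adenine offset) and NDUFA5 (GC and adenine offsets) cross 0, and NDUFAF4, UQCRB, NDUFAF6, NDUFAF8 and NDUFB9 stay filled throughout.

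For 5 members over 50% of the exon sequence lies in another annotated gene on the same strand, where reads that fit both genes may be left uncounted. The shares were 90.0% for NDUFV2, 83.9% for NDUFA13, 77.9% for NDUFA7, 72.0% for NDUFB8 and 68.2% for NDUFA11. Their levels per length were 2.42, 10.1, 1.195, 20.6 and 51.5 CPM per kilobase, against a median of 86.6 (2.56 to 394) in the other 31 complex I subunits. None of the 5 was called in the reported fit, and their values were read as uncertain. With the GC offset NDUFA11, NDUFB8, NDUFA7 and NDUFV2 were called higher (adjusted p = 0.00895, 0.012, 0.04 and 0.0477).

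The other respiratory genes were read from lists by function, beside the same background of 48.4% called. Complex II, which feeds electrons from succinate, gave 1 higher and 3 lower calls among 8 genes. SDHC, one of its membrane anchors, went from 96.2 and 122 CPM to 52.0 and 51.2 CPM (log2 fold change −1.08, SE 0.25, adjusted p = 0.00289). SDHA, the flavoprotein, fell (log2 fold change −0.66, SE 0.23, adjusted p = 0.0297) and lost its call without shCtrl replicate 2 (−0.62, adjusted p = 0.0718), without shFOXK2 replicate 1 (−0.74, adjusted p = 0.0653) and without shFOXK2 replicate 2 (−0.64, adjusted p = 0.125). It was also lost with the GC offset (−0.31, adjusted p = 0.126), the adenine offset (−0.30, adjusted p = 0.141) and the replicate block (adjusted p = 0.0762). ATP synthase gave 1 higher and 2 lower calls among 16 genes. ATP5B, a catalytic subunit, went from 855 and 1110 CPM to 624 and 556 CPM (log2 fold change −0.74, SE 0.24, adjusted p = 0.0232). ATP5O, a stalk subunit, went from 23.6 and 25.8 CPM to 34.3 and 52.6 CPM (log2 fold change 0.82, SE 0.28, adjusted p = 0.0275). Without shFOXK2 replicate 2 both were lost (adjusted p = 0.108 and 0.355), as was ATP5B without shCtrl replicate 2 (0.0655) and ATP5O without shCtrl replicate 1 (0.0615).

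Assembly factors of complexes III and IV gave 5 higher and 2 lower calls among 25 genes. LYRM7, a chaperone of the Rieske protein UQCRFS1, went from 16.1 and 8.60 CPM to 51.0 and 59.0 CPM (log2 fold change 2.15, SE 0.32, adjusted p = 0.000148), while UQCRFS1 itself was not called. LYRM7 was at 1.34 with the GC offset and 0.92 with the adenine offset, called in both. UQCC3, needed for early complex III assembly, went from 9.77 and 14.5 CPM to 30.0 and 26.8 CPM (log2 fold change 1.23, SE 0.29, adjusted p = 0.00382). UQCC1, another early complex III assembly factor, added after its values were seen, went the other way, from 99.6 and 117.6 CPM to 59.3 and 53.3 CPM (log2 fold change −0.95, SE 0.24, adjusted p = 0.00589). It was called lower in each alternative and each leave-one-out fit. Subunits with symbols outside the rule gave 2 higher and 1 lower call among 5 tested. COX7A2L, a supercomplex assembly factor, fell (log2 fold change −0.78, SE 0.24, adjusted p = 0.0176), a call lost without shCtrl replicate 2 (−0.62, adjusted p = 0.0781). NDUFAB1, the mitochondrial acyl carrier protein, rose (log2 fold change 0.71, SE 0.25, adjusted p = 0.0303), and its call was lost without shCtrl replicate 1, shFOXK2 replicate 1 or shFOXK2 replicate 2 (adjusted p = 0.158, 0.0702 and 0.166), as it was with the length offset (0.38, adjusted p = 0.183). COX7A2L was at −1.49 with the GC offset.

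Regulators of respiratory genes gave 3 higher and 0 lower calls among 10. TFAM, which packages and transcribes mitochondrial DNA, went from 42.9 and 24.2 CPM to 125 and 132 CPM (log2 fold change 1.93, SE 0.29, adjusted p = 0.000173), or 1.03 with the GC offset (adjusted p = 0.00158). GABPA, an ETS factor that reads the ETS motif above, went from 9.82 and 4.61 CPM to 16.8 and 17.9 CPM (log2 fold change 1.25, SE 0.36, adjusted p = 0.0104), and was lost without shCtrl replicate 2 (0.75, adjusted p = 0.0927), with the GC offset (0.46, adjusted p = 0.134) and with the adenine offset (0.56, adjusted p = 0.0906). NRF1 had 15.3 and 16.7 CPM against 24.96 and 23.1 CPM (log2 fold change 0.59, SE 0.27, adjusted p = 0.0881). With the GC, adenine and length offsets NRF1 was called higher (0.86, 0.91 and 0.70, adjusted p = 0.00627, 0.00503 and 0.0321). With the replicate block NRF1 was not called (adjusted p = 0.171). Both shFOXK2 libraries lay above both controls for all 3 genes.

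The 11 mitochondrially encoded subunits of complexes I, III and IV gave 3 higher and 1 lower call. MT-ND6, the subunit encoded on the opposite strand, went from 1298 and 1729 CPM to 3856 and 3948 CPM (log2 fold change 1.37, SE 0.26, adjusted p = 0.000921). MT-ND4L went from 1354 and 1804 CPM to 621 and 450 CPM (log2 fold change −1.56, SE 0.27, adjusted p = 0.000406), although it shares a transcript with MT-ND4, whose log2 fold change was 0.33 (adjusted p = 0.380). Genes of this compact genome overlap or abut, so reads at their borders are uncertain.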

How the data were processed

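The authors aligned single-end 50-base reads to hg38 with STAR 2.5.2 and deposited raw HTSeq read counts per gene symbol for 4 libraries of poly(A) RNA. The annotation and strand setting were not given in the sources used here. Members and gene lists were chosen with earlier results of these data known. Counts were filtered with filterByExpr, scaled by TMM and tested with edgeR 4.0.16 (R 4.3.3, quasi-likelihood F test, two-sided, no covariate, threshold 0.05), after a check on simulated data. SE is the absolute log2 fold change over the square root of F. Replicates are labelled as biological duplicates, but nothing ties them to separate transductions, so p-values measure the spread between these libraries. Named genes were the core subunits of complexes I and III, FOXK2, up to 2 called rises and 2 falls per role, the COX isoform pairs, and up to 2 genes per other list. Symbols were matched to GENCODE v44 (63.6% of symbols, 85.3% of tested genes, all members), whose lengths and composition gave lowess offsets (span 0.2). Alternatives included DESeq2 1.42.0 (test and size factors), library size alone, 2 other filters, replicate blocks and leaving out each library. A member's own result is not reported here by name or drawn. In a fit without 1 library, the lone library was assumed to vary like the other group.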

Additional observations from a re-analysis of the deposited data

How the results depend on the processing

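DESeq2's test, its size factors, library size alone and both other filters kept the count of called members within 1.5 times the reported 13. The GC offset gave 22 (20 higher), with 15 complex I subunits and 2 complex III genes. With the replicate block added to the GC offset there were 24 (20 higher), with 15 complex I, 3 complex III and 2 complex IV genes. The adenine offset gave 28 (23 higher, 5 lower), with 20 complex I, 3 complex III and 2 complex IV genes. The length offset gave 12 lower and a member median of −0.112, with 2 complex III and 4 complex IV genes called in either direction. Leaving out 1 library gave 7 to 14 members (6 to 11 higher, 0 to 8 lower), 2 to 7 complex I subunits, 0 to 2 complex IV genes, 16 to 23 genes of the other lists (26 reported) and a member median of −0.007 to 0.224. The lowest count, 7, came without shFOXK2 replicate 2, and the 8 lower calls and the negative median without shCtrl replicate 1. All tested genes called numbered 6771 to 7775 in these fits. Assembly factors stayed at 4 in each.

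Over all tested genes, same-numbered replicates did not deviate together (r = −0.113 over 16417 genes). Of 62 members tested, however, 51 in shCtrl and 50 in shFOXK2 stood higher in replicate 2. With 2 libraries per group the deviations mirror each other and give a single r, which cannot decide whether the numbers pair the libraries. The replicate block left 0 members lower, 3 complex I subunits and 16 genes of the other lists called, and 7270 of all tested genes. A crossed pairing, added after seeing the data, called 14 members and 8350 genes.

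Signs turned for NDUFS3 (−0.097 with the length offset, −0.081 to 0.286 when 1 library was left out), COX6B1 (−0.26, and −0.066 to 0.37) and COX7B (0.078 with the adenine offset). With the GC offset, the GC offset plus block and the adenine offset, values were 0.161, 0.163 and 0.156 for UQCRC1, −0.293, −0.298 and −0.082 for NDUFA5, 0.234, 0.236 and 0.067 for COX8A and −0.206, −0.195 and −0.436 for TMEM126B. COX8A ranged from −0.341 to 0.032 when 1 library was left out, and NDUFAF2 was −0.556 with the adenine offset. The causes were not tested.

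Offsets used present-day canonical transcripts, which may differ from those expressed. With 2 libraries per group, the smallest member difference called was 0.67 on the log2 scale and the largest not called was 1.25 (NDUFA7, under 2 CPM). Genes at 3 counts or fewer give no level.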

Other observations

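Of the 11 UQCR pseudogene symbols left out, 6 had 0 counts in each library and only UQCRFS1P1, a copy of the Rieske subunit gene, had over 10 in all. It was counted 67 and 63 times in shCtrl against 33 and 21 times in shFOXK2, with both shFOXK2 libraries below both controls, and was not called (log2 fold change −1.01, adjusted p = 0.0618).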
